A study of Caenorhabditis elegans with 4 samples.

Results

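The nuclear-encoded subunits of the mitochondrial respiratory chain were examined in the nematode *C. elegans*, where *meg-1(vr10) meg-2(RNAi)* embryos were compared with wild-type embryos. The members are named genes of complexes I to V and of cytochrome c. Of 32 names, 31 were listed under their gene name in a table of 42048 genes. The remaining name, *atp-1*, stands in the table under its sequence name H28O16.1 and is reported beside the 31 but not counted with them. The tested embryos came from *meg-1(vr10)* worms, which carry a partial deletion of *meg-1*, fed bacteria expressing *meg-2* dsRNA (2 libraries). The reference embryos came from N2 wild-type worms fed bacteria with the empty L4440 vector (2 libraries), so both genotypes were grown on RNAi feeding bacteria, at 20°C. MEG-1 and MEG-2 are disordered proteins of the germ plasm, which the mother loads into the egg, and feeding RNAi lowers an mRNA without removing the gene. RNA came from whole embryos, so a transcript that is held by fewer cells cannot be told apart from a transcript that is scarcer in each cell.

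The respiratory chain sits in the inner mitochondrial membrane. Complexes I (NADH dehydrogenase) and II (succinate dehydrogenase) pass electrons to ubiquinone, complex III passes them to the carrier protein cytochrome c, complex IV hands them to oxygen, and complex V (ATP synthase) makes ATP from the proton gradient that complexes I, III and IV build. A few subunits are encoded by mitochondrial DNA and the rest by nuclear genes, and several of the nuclear subunits in *C. elegans* have paralogs on different chromosomes. Mutants of *isp-1*, *gas-1*, *nuo-6* and *mev-1* are well known from studies of lifespan and oxidative stress in this animal.

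The libraries held 22816733 and 20662429 reads on genes in *meg-1 meg-2*, against 24894414 and 26017429 in wild type. The deposited values are means of the libraries of a genotype, and the reads of each library were recovered from them. In each genotype the libraries are named A and B, with no link to the replicate numbers of the labels. *meg-1* had 19 and 18 reads in *meg-1 meg-2*, against 1933 and 2423 reads in wild type, and *meg-2* had 141 and 172 reads in *meg-1 meg-2*, against 515 and 677 in wild type, so both targeted genes were low where the labels say. Levels are given as FPKM (reads scaled for library size, per kb of gene length), as mean ± SD over 2 libraries. Changes are log2 changes (*meg-1 meg-2* over the wild type) with standard errors (SE), from limma on log2(fpm + 0.5), where fpm is the same measure without the division by length. Features with a mean of at least 1 fpm were tested (12734 features), and a gene was said to have risen or fallen with an adjusted *P* below 0.05 (Benjamini-Hochberg over all features tested). With 2 libraries a genotype, limma takes the variance of a gene partly from all features tested, through a trend with level. The SE of the members tested lay between 0.12 and 0.15. A *P*-value therefore does not measure the spread of that gene alone, and it covers only these libraries.

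Of the 31 members, 30 passed the filter, with mean wild-type levels between 53.5 and 830.1 FPKM. 6 rose in *meg-1 meg-2* and 0 fell. They were *asb-1*, *asg-1*, *hpo-18* and *atp-4* of complex V, *nuo-3* of complex I and *ucr-2.3* of complex III. This is 20.0% of the members tested, where 13.8% of all features tested rose and 7.84% fell. At an unadjusted *P* below 0.05, 13 members were higher and 0 lower. Of the 12734 features tested, 2684 were higher at that threshold and 1873 were lower. Tests on the recovered reads called 6 members higher and 0 lower with edgeR, and 7 higher and 0 lower with DESeq2. Over the same 12734 features, edgeR took 1184 as up and 917 as down. For DESeq2 these totals were 1392 up and 954 down. With a threshold of 1.5-fold at an unadjusted *P* below 0.05, 1 member was higher (*asb-1*) and 0 were lower, and the same threshold took 5.53% of all features as higher and 3.12% as lower. The median log2 change was 0.20 over the members and 0.01 over all features tested. The members are well expressed, and all 30 also had a mean of at least 5 fpm. Of the 9519 features at that level 1740 rose, and with that filter 8 of the 30 members did. The median log2 change was 0.06 over these features and 0.20 over the members, so part of the gap in medians goes with level.

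**Figure D1:**
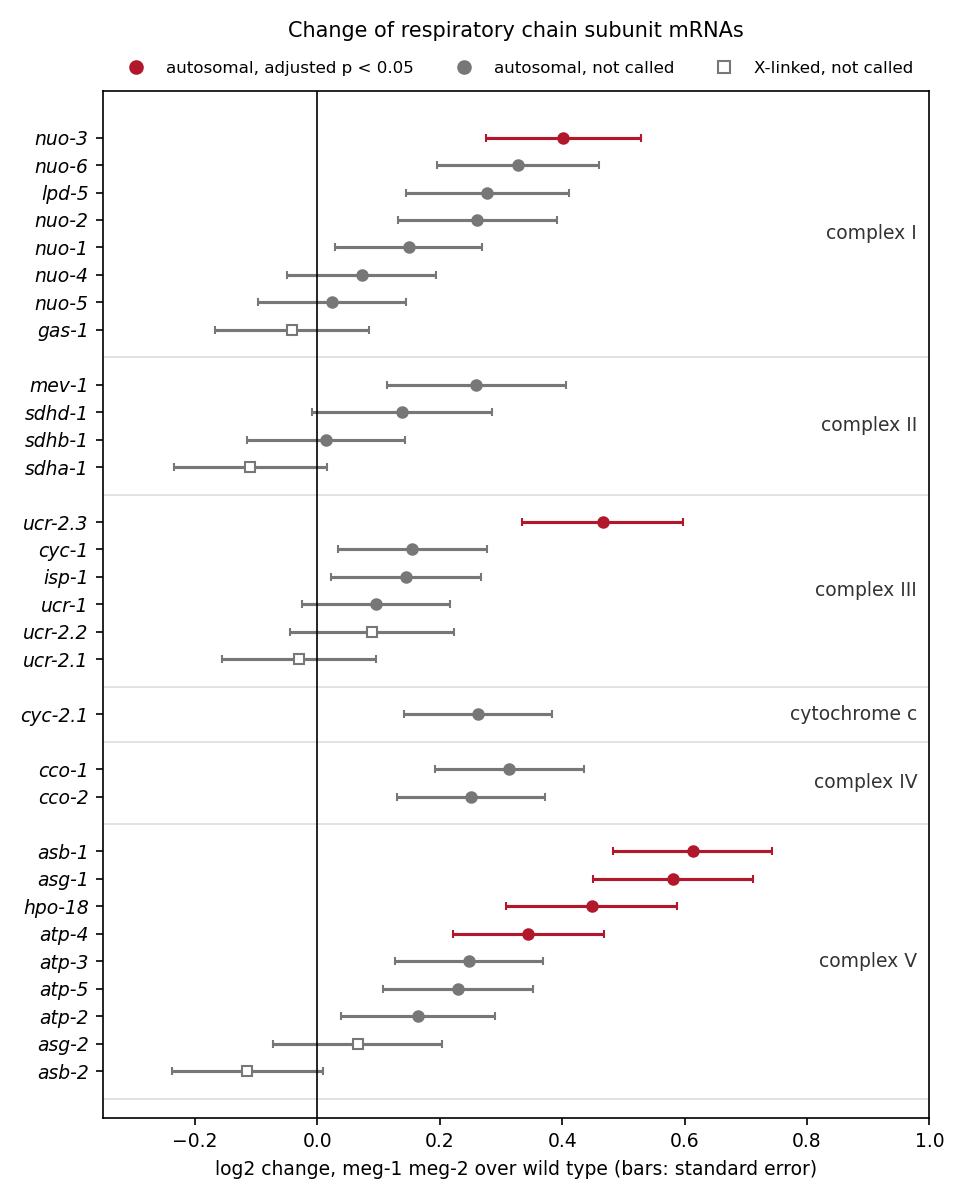
Log2 change of each member tested, *meg-1 meg-2* over wild type (x axis, with standard error), grouped by complex (y axis). Red points rose at an adjusted *P* below 0.05. The 6 red points lie between 0.34 and 0.61, and the 6 open squares, the X-linked members, lie between -0.11 and 0.09.

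Small shifts in 1 direction were common among the members. For 22 of 30 members, against 35.4% of all features, every *meg-1 meg-2* value exceeded every wild-type value, and for 2 members (*asb-2* and *sdha-1*), against 30.1% of all features, every *meg-1 meg-2* value was the lower. Wild-type library A was the lowest of the 4 libraries for 26 members and *meg-1 meg-2* library A for the other 4. For the same 22 members the order was wild type A, then wild type B, then both *meg-1 meg-2* libraries. Summed over the 31 members, transcripts came to 6141 and 6298 fpm in *meg-1 meg-2*, against 5267 and 5716 fpm in wild type.

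Nearly all members differed between the wild-type libraries. Library B was above library A for 29 of 30, with a median log2 difference of 0.13, while the median over all features tested was 0.10. For the 6 members that rose, the median difference between the wild-type libraries was 0.25, with values between 0.16 and 0.32. Some members that did not rise lay in the same range, such as *nuo-6* at 0.20 and *cyc-1* at 0.19. The number of members called depended on single libraries. Without *meg-1 meg-2* library A, or without library B, 0 members passed the adjusted threshold and 2 passed an unadjusted *P* below 0.05 in each case. Over all features, 43 features passed without library A and 41 without library B. Without 1 wild-type library, A or B, more members rose, and so did more of all features tested. Each of these fits rests on 1 library of a genotype. The median log2 change of the members was 0.15 without wild-type library A and 0.26 without wild-type library B. Over all features tested it was 0.01 and 0.04. Over the fits that left out a library, the 6 members named above had log2 changes between 0.27 and 0.76. No member fell in any of these fits.

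**Figure D2:**
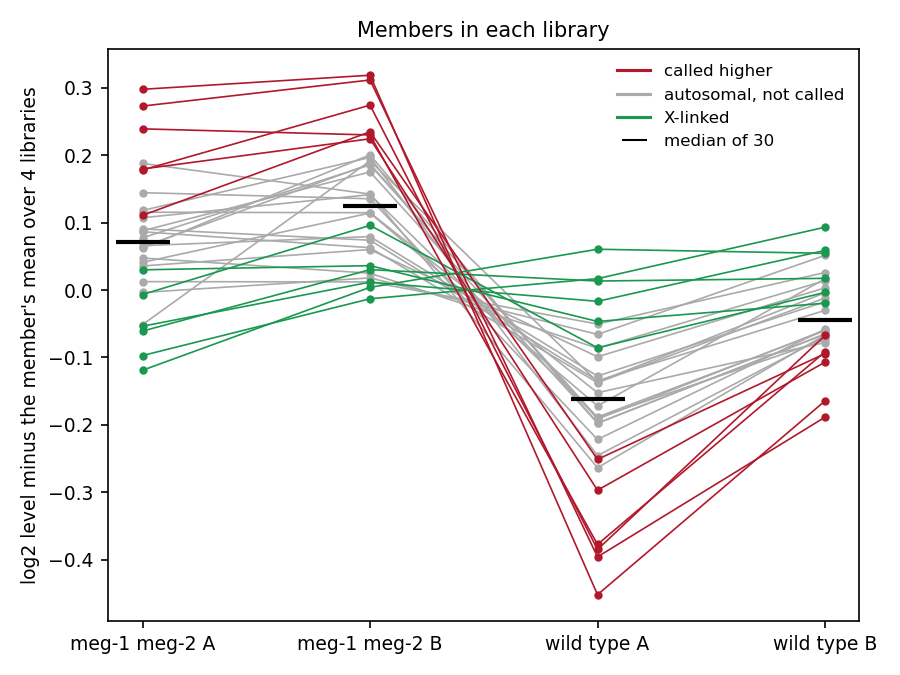
Log2 level of each of the 30 members tested in each library, less the member's mean over the 4 libraries (y axis), with 1 line a member and a black bar at the median. Median shifts were 0.07 (A) and 0.12 (B) in *meg-1 meg-2*, against -0.16 (A) and -0.04 (B) in wild type. Members that rose are in red and X-linked members in green.

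In complex I, 1 of 8 members rose (12.5%), close to the 13.8% of all features tested. *nuo-3*, a small accessory subunit, had 212 and 219 FPKM in *meg-1 meg-2*, against 152.7 and 174.2 FPKM in wild type, so the groups did not overlap. Its log2 change was 0.40 (SE 0.13, adjusted *P* = 0.0156 by limma). *nuo-3* overlaps another coding gene on the same strand. The next in size was *nuo-6*, another accessory subunit, at 174.8 ± 3.9 FPKM in *meg-1 meg-2* and 139 ± 13 FPKM in wild type, with a log2 change of 0.33 that missed the threshold (adjusted *P* = 0.0607 by limma). *lpd-5*, the counterpart of human NDUFS4, had 155.8 ± 0.7 FPKM in *meg-1 meg-2* and 129 ± 10 FPKM in wild type, and *nuo-2*, the counterpart of NDUFS3 in the peripheral arm, had 76.9 ± 5.2 and 64.1 ± 4.2 FPKM in the same order. Neither passed (adjusted *P* = 0.118 and 0.133 by limma). The other 4 members had log2 changes between -0.04 and 0.15. *nuo-1*, which binds NADH and flavin, had 238.1 ± 2.8 FPKM in *meg-1 meg-2* and 215 ± 13 FPKM in wild type. *nuo-5*, the large iron-sulfur subunit, had 109.4 ± 0.02 FPKM in *meg-1 meg-2* and 107.6 ± 4.0 FPKM in wild type. *gas-1*, the subunit next to the ubiquinone site, had 82.6 ± 2.6 FPKM in *meg-1 meg-2* and 85.1 ± 3.1 FPKM in wild type. *nuo-4* had 180.9 ± 2.0 FPKM in *meg-1 meg-2* and 172.1 ± 8.5 FPKM in wild type.

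None of the 4 members of complex II passed the test. Their values lay on both sides of 0. *sdha-1*, the flavoprotein that oxidises succinate, had 64.3 and 68.2 FPKM in *meg-1 meg-2*, against 69.6 and 73.4 FPKM in wild type, with a log2 change of -0.11 (SE 0.13). Its groups did not overlap, by a margin smaller than the spread within either genotype. *sdhb-1*, the iron-sulfur subunit, had 109.8 ± 1.2 FPKM in *meg-1 meg-2* and 108.8 ± 6.2 FPKM in wild type. *mev-1*, the cytochrome b560 subunit that anchors the complex in the membrane, had 79.6 and 84.6 FPKM in *meg-1 meg-2*, against 65.3 and 71.6 FPKM in wild type, and a log2 change of 0.26 (SE 0.15, adjusted *P* = 0.188 by limma). The other anchor, *sdhd-1*, had 98 ± 12 FPKM in *meg-1 meg-2* and 88.8 ± 5.7 FPKM in wild type. At an unadjusted *P* below 0.05 the count was also 0, as it was with edgeR and with DESeq2.

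In complex III, 1 of 6 members rose (16.7%, where 13.8% of all features tested rose), and it was 1 of 3 paralogs of the same core protein. *ucr-2.3* had 79.7 and 79.2 FPKM in *meg-1 meg-2*, against 52.0 and 63.4 FPKM in wild type, a log2 change of 0.47 (SE 0.13, adjusted *P* = 0.00636 by limma). Its paralogs *ucr-2.1* and *ucr-2.2* had log2 changes of -0.03 and 0.09. *ucr-2.3* overlaps *zer-1* on the opposite strand, and the strand setting of the read counting is not given in the sources used here. The other 3 members did not pass. *isp-1*, the Rieske iron-sulfur protein, had 255.0 ± 1.7 FPKM in *meg-1 meg-2* and 231 ± 12 FPKM in wild type. *cyc-1*, cytochrome c1, had 274.4 ± 9.8 FPKM in *meg-1 meg-2* and 247 ± 23 FPKM in wild type. *ucr-1*, the other core protein, had 207.4 ± 2.5 FPKM in *meg-1 meg-2* and 194.2 ± 9.7 FPKM in wild type. The log2 changes of these 3 lay between 0.10 and 0.15, with adjusted *P*-values between 0.365 and 0.592 by limma.

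Cytochrome c was almost wholly *cyc-2.1*, the highest of all members per kb. *cyc-2.1* had 959 and 1033 FPKM in *meg-1 meg-2*, against 797 and 863 FPKM in wild type, with a log2 change of 0.26 (SE 0.12, adjusted *P* = 0.104 by limma). Its paralog *cyc-2.2* had 4 and 7 reads in *meg-1 meg-2*, against 2 and 7 reads in wild type. This is close to the 3 reads that a count of 0 allows, and *cyc-2.2* was below the filter and was not tested. The 2 members of complex IV, *cco-1* and *cco-2*, are the counterparts of COX5B and COX5A. *cco-1* had 561 and 593 FPKM in *meg-1 meg-2*, against 436 and 493 FPKM in wild type, with a log2 change of 0.31 (SE 0.12) that fell just short of the threshold (adjusted *P* = 0.0520 by limma). It passed with DESeq2, with protein-coding genes only and with a mean of at least 5 fpm. *cco-2* had 612 and 667 FPKM in *meg-1 meg-2*, against 513 and 562 FPKM in wild type, with a log2 change of 0.25 (SE 0.12, adjusted *P* = 0.122 by limma).

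In complex V, the complex with the most members here, 4 of 9 members rose (44.4%), where 13.8% of all features tested rose. *atp-1*, which did not pass, is not among the 9. *asb-1*, a germline form of subunit b, which is part of the stalk that holds the catalytic head in place, had 138 and 140 FPKM in *meg-1 meg-2*, against 81.9 and 99.98 FPKM in wild type. Its log2 change was 0.61 (SE 0.13, adjusted *P* = 0.000200 by limma), the largest of the 30 members. *asg-1*, subunit g of the membrane part, had 285 and 293 FPKM in *meg-1 meg-2*, against 179 and 207 FPKM in wild type, and its log2 change of 0.58 (SE 0.13, adjusted *P* = 0.000486 by limma) lay just under 1.5-fold. *hpo-18*, the epsilon subunit of the central stalk, had 392 and 419 FPKM in *meg-1 meg-2*, against 266 and 331 FPKM in wild type, with a log2 change of 0.45 (SE 0.14, adjusted *P* = 0.0137 by limma). *atp-4*, coupling factor 6 of the outer stalk, had 497 and 542 FPKM in *meg-1 meg-2*, against 387 and 431 FPKM in wild type, with a log2 change of 0.34 (SE 0.12, adjusted *P* = 0.0333 by limma). In all 4 the genotypes did not overlap, and wild-type library B lay nearer to *meg-1 meg-2* than wild-type library A did. *asg-1* overlaps a coding gene on the opposite strand and *atp-4* one on the same strand, whereas *asb-1* and *hpo-18* overlap none.

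**Figure D3:**
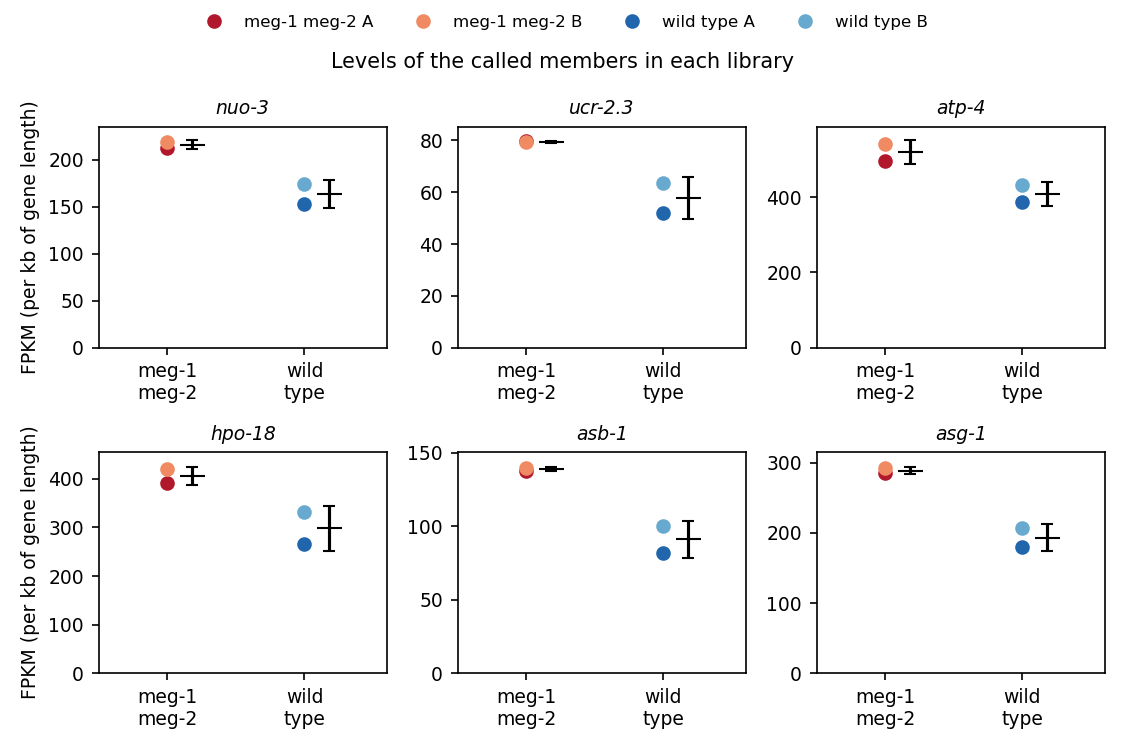
FPKM (y axis, per kb of gene length, from 0) of the 6 members that rose, in *meg-1 meg-2* (left) and wild type (right). Points are libraries, and the bar beside them is the mean with its SD (n = 2). Both *meg-1 meg-2* points lie above both wild-type points in each panel, for *asb-1* at 138 and 140 FPKM against 81.9 and 99.98 FPKM.

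The remaining subunits of complex V did not pass. *atp-2*, the catalytic beta subunit, was the most abundant member in reads. It had 815 and 806 FPKM in *meg-1 meg-2*, against 698 and 750 FPKM in wild type, with a log2 change of 0.16 (SE 0.13, adjusted *P* = 0.348 by limma). Its partner in the catalytic head, the alpha subunit *atp-1*, had 249 and 255 FPKM in *meg-1 meg-2*, against 278 and 281 FPKM in wild type. The log2 change of *atp-1* was -0.15 (SE 0.12, adjusted *P* = 0.382 by limma), so the values of the alpha and beta subunits lay on different sides of 0. *atp-3*, which joins the outer stalk to the head (the OSCP subunit), had 452.9 ± 7.6 FPKM in *meg-1 meg-2* and 382 ± 24 FPKM in wild type. *atp-5*, subunit d of the same stalk, had 369.4 ± 0.1 FPKM in *meg-1 meg-2* and 315 ± 11 FPKM in wild type. The log2 changes of *atp-3* and *atp-5* were 0.25 and 0.23. The paralogs *asb-2* and *asg-2* had log2 changes of -0.11 (SE 0.12) and 0.07 (SE 0.14).

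Paralogs of the same subunit therefore had different values, and the shares within each family were compared. *asb-1* supplied 43.1% and 41.4% of the summed FPKM of subunit b in *meg-1 meg-2*, against 28.5% and 32.8% in wild type, where *asb-2*, the broadly expressed form, supplied the rest. *asb-2* itself had 182 and 198 FPKM in *meg-1 meg-2*, against 206 and 205 FPKM in wild type. *asg-1* supplied 65.5% and 66.0% of subunit g in *meg-1 meg-2*, against 55.8% and 58.8% in wild type, while *asg-2* had 149.8 and 150.5 FPKM in *meg-1 meg-2*, against 142.1 and 144.8 FPKM in wild type. Among the core proteins, *ucr-2.3* supplied 34.3% and 32.7% in *meg-1 meg-2*, against 25.1% and 28.6% in wild type. *ucr-2.1* supplied 42.1% and 43.0% in *meg-1 meg-2*, against 49.7% and 46.6% in wild type, and *ucr-2.2* between 23.6% and 25.1% in every library. *cyc-2.1* supplied over 99.9% of cytochrome c in each library.

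The difference in share was 11.6 percentage points for *asb-1*, 8.48 points for *asg-1* and 6.63 points for *ucr-2.3*, and the libraries of the genotypes did not overlap. Each gave a two-sided exact permutation *P* of 0.333, the smallest that 2 libraries against 2 can give, so none of these differences can reach significance by that test. On the log2 scale the ratio of *asb-1* to *asb-2* was 0.73 higher in *meg-1 meg-2*, and that of *asg-1* to *asg-2* 0.52 higher. The wild-type libraries also differed within a family. The ratio of *asb-1* to *asb-2* was 0.759 and 0.707 in *meg-1 meg-2*, against 0.399 (A) and 0.488 (B) in wild type. How reads that match more than 1 paralog were treated is not given in the sources used here.

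**Figure D4:**
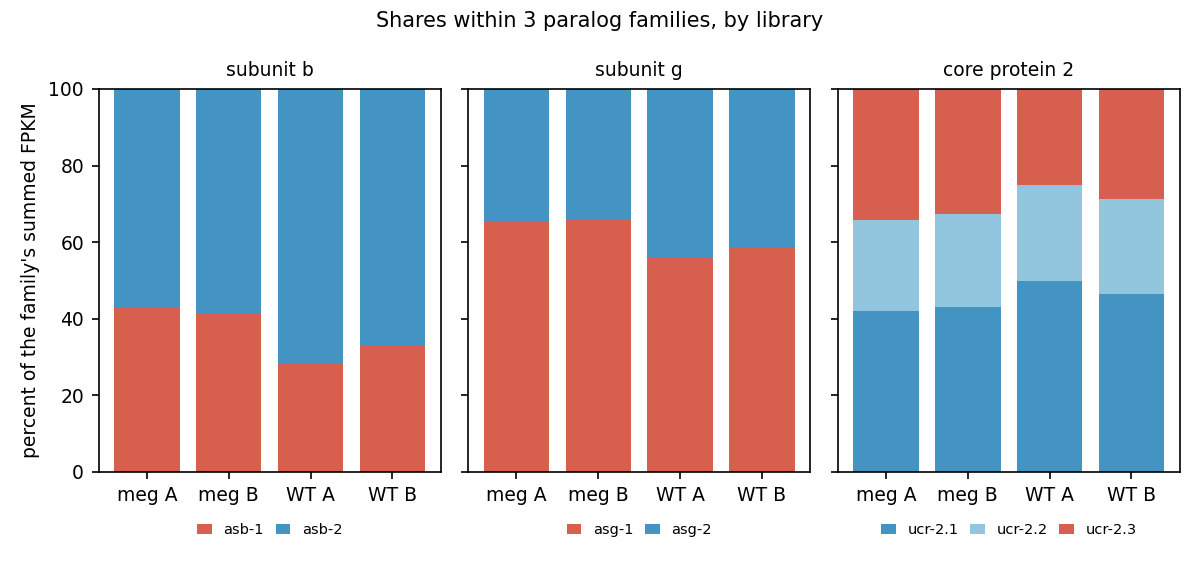
Percent of the summed FPKM of subunit b, subunit g and core protein 2 (y axis) that each paralog supplied, in *meg-1 meg-2* libraries (meg A, meg B) and wild-type libraries (WT A, WT B). The red part, the autosomal paralog, was larger in both *meg-1 meg-2* libraries than in both wild-type libraries, for *asb-1* at 43.1% and 41.4% against 28.5% and 32.8%.

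In each of these 3 families the paralog that rose lies on an autosome and those that did not pass lie on the X chromosome (WBcel235 annotation). Of the 31 members, 6 are X-linked (*gas-1*, *sdha-1*, *ucr-2.1*, *ucr-2.2*, *asb-2* and *asg-2*). None of the 6 passed the test, at an unadjusted *P* below 0.05 or with edgeR or DESeq2. Their median log2 change was -0.04, against 0.26 for the 24 autosomal members tested, whose values lay between 0.01 and 0.61. The same direction was seen over the genome. The median was -0.16 over 1762 X-linked protein-coding genes tested and 0.05 over 10349 autosomal ones, and 5.90% of the X-linked genes rose, against 15.7% of the autosomal ones. The sign of the smallest values depended on scaling. Under RPM (reads over the library total without rRNA genes), TMM, quantile or edgeR scaling the values of *asg-2*, *sdhb-1* and *nuo-5* fell below 0, and *nuo-4* and *ucr-2.2* did so under quantile scaling, while the 6 members that rose stayed at 0.256 or more in each.

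Members also differed by length. The 19 members tested that are shorter than 1000 bp had a median log2 change of 0.26, against 0.09 for the 11 longer members, 4 of which are X-linked. Among autosomal members alone the medians were 0.26 for 17 short and 0.15 for 7 longer members. Of the short members 5 rose (26.3%), and 17.1% of short protein-coding genes rose, against 12.5% of longer ones. Over the 30 members tested, log2 change and log2 length had Pearson's r of -0.53 and Spearman's rho of -0.54. Over 12111 protein-coding genes tested these were -0.13 and -0.13. These are correlations across genes that share the same 4 libraries, and genes are not independent replicates. With each library's length trend removed, a setting chosen after seeing the data, *asb-1*, *asg-1*, *hpo-18* and *ucr-2.3* still passed while *nuo-3* and *atp-4* did not, and the median of the members was 0.17.

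Transcripts that mark embryo age and cell type differed between genotypes in some lists, and their part in the values above was not tested. The lists were chosen with earlier results of these data known, and over all features tested 13.8% rose and 7.84% fell with limma. All 20 oocyte and maternal transcripts listed rose with limma (15 with edgeR and 18 with DESeq2). Their summed levels were 2800 and 2833 fpm in *meg-1 meg-2*, against 1595 (A) and 2042 (B) fpm in wild type. The largest rises were those of *cpg-2* and *cpg-1*, eggshell proteoglycans, and *oma-2*, a regulator of oocyte maturation, at log2 changes of 1.09, 0.95 and 0.86. Of 15 early zygotic transcripts tested, 12 rose with limma (8 with edgeR and 7 with DESeq2), with summed levels of 1987 and 1895 fpm in *meg-1 meg-2*, against 1110 and 1426 fpm in wild type. *end-3*, an endoderm regulator, *pes-10* and *tbx-37* led at 0.84, 0.72 and 0.69. Of 13 muscle transcripts 8 fell with limma (4 with edgeR and 4 with DESeq2), with summed levels of 3357 and 3365 fpm in *meg-1 meg-2*, against 5821 and 3890 fpm in wild type. They were led by *unc-15* (paramyosin), *unc-54* (myosin heavy chain) and *lev-11* (tropomyosin) at -0.94, -0.81 and -0.73. Of 9 late epidermal transcripts tested 7 fell with limma (7 with edgeR and 7 with DESeq2), with summed levels of 3794 and 4089 fpm in *meg-1 meg-2*, against 5435 and 5274 fpm in wild type. Of 10 neuronal transcripts 0 passed with limma (3 were lower at an unadjusted *P* below 0.05, 1 fell with edgeR and 0 with DESeq2). Of 4 intestinal transcripts tested 1 fell with limma (0 with edgeR and 1 with DESeq2). The 14 sperm transcripts summed to between 1.15 and 2.04 fpm in all libraries, and 5 of them had 0 reads in every library. In the maternal, early zygotic, muscle, late epidermal, neuronal and intestinal sums, wild-type library B lay between wild-type library A and *meg-1 meg-2*, as it did for 22 members. In the muscle, neuronal and intestinal sums, wild-type library B lay nearer to *meg-1 meg-2* than to wild-type library A. In the maternal, early zygotic and late epidermal sums it lay nearer to wild-type library A.

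Other genes of the pathway were read from a separate list. Of 28 further respiratory chain subunits tested, 4 rose and 0 fell, with a median log2 change of 0.23 (11 were higher and 0 lower at an unadjusted *P* below 0.05, with 4 higher and 0 lower by edgeR and 5 higher and 0 lower by DESeq2). The share that rose, 14.3%, was close to the 13.8% of all features. *nduf-2.2*, an autosomal paralog of *gas-1*, had 48.3 and 46.1 FPKM in *meg-1 meg-2*, against 24.4 and 31.4 FPKM in wild type, with a log2 change of 0.76 (SE 0.14). It was the sole gene of that list past 1.5-fold. *mai-2*, an inhibitor of ATP synthase, had 288 and 277 FPKM in *meg-1 meg-2*, against 212 and 234 FPKM in wild type, and rose by 0.34 on the log2 scale (adjusted *P* = 0.049 by limma). Its X-linked paralog *mai-1* had 7.13 and 8.02 FPKM in *meg-1 meg-2*, against 5.98 and 7.76 FPKM in wild type, and did not pass. None of the 12 subunits encoded by mitochondrial DNA, *ctc-1* among them, is in the table, which has 0 rows on that genome, so nuclear and mitochondrial subunits were not compared.

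Genes that work around the chain were read in the same way. Of 11 assembly factors 0 rose and 0 fell, with 0 at an unadjusted *P* below 0.05 and 0 by edgeR or DESeq2, and a median log2 change of 0.15. Of 8 ubiquinone synthesis genes 1 rose (*coq-5*), and of 19 genes of the TCA cycle and pyruvate dehydrogenase 3 rose and 0 fell. Of 18 glycolysis genes tested 4 rose and 0 fell by limma, where edgeR had 2 lower and DESeq2 1 lower. The shares that rose were 12.5% (ubiquinone synthesis), 15.8% (TCA cycle and pyruvate dehydrogenase) and 22.2% (glycolysis). They were 13.8% over all features tested and 20.0% over the members. The leading glycolysis genes, *gpd-4* and *gpd-1*, near-identical glyceraldehyde-3-phosphate dehydrogenases whose reads could be split by the counting, had log2 changes of 0.89 and 0.69. *ant-1.1*, which exchanges ATP for ADP across the inner membrane, had 1945 and 2001 FPKM in *meg-1 meg-2*, against 1497 and 1603 FPKM in wild type, and rose by 0.35 on the log2 scale (adjusted *P* = 0.038 by limma), a call that was kept with DESeq2 and lost with edgeR. Its 3 paralogs were below the filter. Of 9 mitochondrial chaperones and proteases, 0 passed with limma (1 was higher and 1 lower at an unadjusted *P* below 0.05, and edgeR and DESeq2 each had 1 lower). Among them, *hsp-6*, the mitochondrial HSP70 that is induced by mitochondrial protein stress, had 126 and 121 FPKM in *meg-1 meg-2*, against 125 and 134 FPKM in wild type, and the genotypes overlapped. Of 4 genes for mitochondrial DNA upkeep and transcription, 0 passed with limma, edgeR or DESeq2, and 2 were higher at an unadjusted *P* below 0.05.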

How the data were processed

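Embryos of each genotype gave 2 libraries, each made from 1 µg of total RNA with rRNA removal and 12 PCR cycles. The authors aligned reads to ce10 with HISAT2, counted those on genes (HTSeq-count) and ran DESeq2 between genotypes. Versions, annotation release and strand setting are not given in the sources used here. The signal the authors deposited is each genotype's mean in fpm, that is, reads over size factors and library size. The FPKM the authors deposited divides it by length in bp, and FPKM here uses kb. The deposited log2 fold change and the deposited adjusted p-value are the authors' comparison and were not used. The table had 0 spike-in rows and 0 unused columns of single samples.

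Reads of each library were recovered as the pair of whole numbers whose scaled mean gives the deposited value, within a relative rounding of 8e-15. Exactly 1 pair was found for 100% of wild-type and 99.998% of *meg-1 meg-2* values, where size factors settled 1 gene. A count of 0 allows 3 reads, or 0.114 to 0.149 fpm, a limit for counting error alone, because libraries carried no molecular identifiers. The 4 libraries were compared with limma 3.58.1 in R 4.3.3 (lmFit, eBayes with trend) on log2(fpm + 0.5) for features with a mean of at least 1 fpm, without a replicate block. Count tests on the recovered reads used edgeR 4.0.16 and DESeq2 1.42.0. Recovery and fits were tested on simulated data. Every member was named, with *meg-1*, *meg-2*, *mai-1*, *mai-2*, *ctc-1*, *hsp-6* and up to 3 genes of each other list past 1.5-fold. *coq-5* and *ant-1.1* were named after their values were seen. The members and gene lists were chosen with earlier results of these data known. Chromosomes and overlaps come from WBcel235 by WormBase ID (41759 IDs matched), and no coordinate was converted. Alternatives were other pseudocounts (0.1 and 2), filters (none, or 5 fpm), the FPKM scale (with a minimum and a pseudocount of 2 FPKM), scalings, variance models, protein-coding genes only, count tests, leaving out each library, removal of the length trend and counting *atp-1* as a member.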

Additional observations from a re-analysis of the deposited data

How the results depend on the processing

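No member fell under any setting run. The 6 members that rose were all called under 10 of the 14 settings other than leaving out a library, with 6 to 8 members called in these. Fewer were called without a filter on low values (0, where 28209 features were tested and 4 passed in all), on the FPKM scale (1), with limma without the trend (2) and with the length trend removed (4). The cause was not tested. Leaving out each library in turn gave between 0 and 20 members called higher, between 0 and 4 at least 1.5-fold higher, and a median log2 change of the members between 0.15 and 0.26. These fits rest on a lone library that is assumed to vary like the other genotype. The count at least 1.5-fold higher was 0 in place of 1 under RPM, TMM, quantile, edgeR and DESeq2 scaling and with the length trend removed. The median of the members was 0.13 under RPM without rRNA genes (0.129), TMM (0.130) and edgeR (0.130), where the median of all features fell to -0.06, -0.06 and -0.07. With *atp-1* counted as a member the median was 0.16.

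Signs changed for members close to 0, none of which passed the test in any of these fits. *asg-2* was at -0.0021 under RPM, -0.0010 under TMM, -0.033 under quantile scaling, -0.0014 with edgeR and -0.013 with the length trend removed. *sdhb-1* was at -0.054, -0.053, -0.096, -0.053 and -0.040 under the same 5 settings, and at -0.020 with DESeq2. *nuo-5* was at -0.044 under RPM, -0.043 under TMM, -0.034 under quantile scaling, -0.043 with edgeR and -0.0095 with DESeq2. Under quantile scaling *nuo-4* was at -0.0074 and *ucr-2.2* at -0.012. Among fits that left out a library, *ucr-2.1* ranged between -0.076 and 0.015 (above 0 where *meg-1 meg-2* library A was left out), *sdhb-1* between -0.044 and 0.073 and *nuo-5* between -0.014 and 0.063 (both below 0 where wild-type library A was left out). As shares of fpm the differences were 11.6 points for *asb-1* and 8.48 points for *asg-1*, but this is no separate check. *asg-1* and *asg-2* are both 396 bp long, and *asb-1* and *asb-2* are 906 and 918 bp long, so these shares could hardly differ.

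No paired analysis was possible because each deposited column averages the libraries of a genotype, and the recovered libraries carry no replicate number. At 2 libraries a genotype, changes near the standard error of the members (0.12 to 0.15 on the log2 scale) were not detectable.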

Other observations

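The ratio of an autosomal to an X-linked paralog was also higher in *meg-1 meg-2* in 2 families that were picked out after the values were seen, and it is given as values with no test. The ratio of *nduf-2.2* (autosomal) to *gas-1* (X-linked) in FPKM was 0.599 and 0.546 in *meg-1 meg-2*, against 0.294 and 0.359 in wild type. The ratio of *sdha-2* (autosomal) to *sdha-1* (X-linked) was 0.598 and 0.517 in *meg-1 meg-2*, against 0.412 and 0.451 in wild type. *sdha-2* itself had 38.4 and 35.3 FPKM in *meg-1 meg-2*, against 28.7 and 33.1 FPKM in wild type, and did not pass the test (adjusted *P* = 0.164 by limma). A further pair of the same list did not show this. The ratio of *mai-2* (autosomal) to *mai-1* (X-linked) was 40.4 and 34.6 in *meg-1 meg-2*, against 35.5 and 30.1 in wild type, and the genotypes overlapped. In the ratios of *nduf-2.2* to *gas-1* and of *sdha-2* to *sdha-1*, wild-type library B lay nearer to *meg-1 meg-2* than wild-type library A did.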
